A study of Mus musculus with 20 samples.

Results

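The genes described here are the mouse Ugt1a locus, which encodes glucuronosyltransferases, together with Ugdh and Ugp2, whose enzymes make the sugar donor that those transferases use. They were taken from the count table by symbol, and all 10 symbols (8 of the Ugt1a locus and the 2 supply genes) were found among 25239 genes. RNA had been sequenced from the preoptic area (POA), a forebrain region that controls reproductive behavior and houses gonadotropin-releasing hormone (GnRH) neurons, of 20 male mice sacrificed at postnatal day (PND) 320. The study asked how 300 days with an opposite sex (OS) or same sex (SS) partner alters gene expression in reproductively normal and compromised males.

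Genotype (control or dnFGFR) and housing (SS or OS) gave 4 groups with 5 mice in each, and every mouse had been paired at PND20. The dnFGFR mice carry a truncated fibroblast growth factor receptor 1 that acts as a dominant negative, driven by a rat GnRH promoter in GnRH neurons, and were bred from homozygous pairs. Control mice descended from the mating of heterozygous dnFGFR siblings, so the genotypes are related lines and not littermates. OS pairs bred freely. The transgene is expressed in a small population of neurons, whereas the RNA came from a whole tissue block of 1 brain per sample. In such bulk RNA, fewer cells of a type and less RNA per cell cannot be told apart.

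Glucuronidation joins glucuronic acid from UDP-glucuronate to steroids, bilirubin, thyroid hormone and many drugs, which makes them soluble and ready for export. UGP2 makes UDP-glucose from glucose 1-phosphate, and UGDH oxidizes UDP-glucose to UDP-glucuronate, which is also the building block of hyaluronan, heparan sulfate and chondroitin sulfate. In the Ugt1a locus, alternative first exons, each with its own start site, are spliced to 1 common set of downstream exons, so each protein has its own substrate-binding part and a common part that binds the sugar donor. In the brain, glucuronidation is best known from the endothelium of the blood-brain barrier, the choroid plexus and astrocytes.

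The junctions between the own exons and the common exons are shown because they show why the 8 Ugt1a rows of the count table are close to 1 measurement. Each sequence is from the GENCODE transcript that matches the RefSeq accession of the gene (GRCm38, plus strand of chromosome 1), with the last 20 bases of the own part in lower case and the first 20 bases of the common part, which starts at chr1:88215044-88215175, in capitals.
Ugt1a10: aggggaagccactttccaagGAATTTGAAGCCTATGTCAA
Ugt1a9: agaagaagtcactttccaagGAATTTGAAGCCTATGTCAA
Ugt1a7c: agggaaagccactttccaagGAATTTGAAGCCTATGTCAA
Ugt1a6b: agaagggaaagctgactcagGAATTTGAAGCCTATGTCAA
Ugt1a6a: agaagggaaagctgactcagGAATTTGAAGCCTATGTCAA
Ugt1a5: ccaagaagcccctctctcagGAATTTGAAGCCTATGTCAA
Ugt1a2: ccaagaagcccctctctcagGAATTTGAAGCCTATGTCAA
Ugt1a1: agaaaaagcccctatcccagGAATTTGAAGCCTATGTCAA

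The capitals were identical in all 8 transcripts, and the lower-case ends came in 6 forms, with Ugt1a6a and Ugt1a6b sharing one and Ugt1a5 and Ugt1a2 another. The own parts were 879 to 986 bases long, and the common part was 1311 to 2316 bases, depending on the annotated end of the last exon. The own exons lay upstream of the common exons in the order given above, the farthest starting 159.6 kb before the first common exon. Ugt1a10, the most distant, has its own exon at chr1:88055411-88056336, and Ugt1a1, the nearest and the main bilirubin transferase, at chr1:88211959-88212871. Ugt1a7c has its own exon at chr1:88095064-88095978. Ugt1a6a, a transferase for small planar phenols and serotonin, has own exons at chr1:88134809-88134935 and chr1:88138473-88139331. Ugt1a6b, its near copy, has them at chr1:88103252-88103378 and chr1:88106941-88107799. The 986 bases of own sequence in Ugt1a6a and Ugt1a6b were identical at 960 positions (97.4%), and 218 of 837 stretches of 150 bases in Ugt1a6a, the read length, occurred unchanged in Ugt1a6b, so the assignment of reads between these 2 genes is uncertain.

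The counts followed this structure. Ugt1a2, Ugt1a9 and Ugt1a10 had the same count as each other in 20 of 20 mice, and it was the lowest of the 8 rows in every mouse. Ugt1a1 and Ugt1a5 had that count too in all but a few mice, and all 5 rows were identical in 16 of 20 mice. The lowest count in each mouse was therefore taken as the number of reads on the common exons, and what a row held beyond it as its own reads. This lowest count bounds the common reads from above, because a first exon used equally by every row would be hidden in it. Own reads were not placed on exons, since the table gives only 1 count a gene. Levels given below for own or common exons therefore rest on this split of the counts. In the GENCODE transcripts above, Ugt1a7c alone has a last exon that runs to 88220002, while those of the other 7 end between 88218997 and 88219004. In the RefSeq gene table of GRCm38, 7 of the 8 genes end at 88220002 and Ugt1a6b at 88218998. The counts were made per RefSeq gene, but the release and its ends are not given in the sources used here. With the RefSeq ends above, reads in the longer last exon would count for 7 genes and not for Ugt1a7c alone. The own reads of Ugt1a7c could lie in that exon only if the ends used resembled those of the GENCODE transcripts. Those of Ugt1a6b can be undercounted.

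Of 4002 reads of the locus over the 20 mice, 2460 (61.5%) were taken as common. Ugt1a6a held 1102 of the 1542 own reads (71.5%). Ugt1a7c had 240 own reads and Ugt1a6b 193. The remaining rows had almost no own reads, with 4 reads for Ugt1a1, 3 for Ugt1a5 and 0 for Ugt1a2, Ugt1a9 and Ugt1a10. A count of 0 over the 20 mice allows up to 3 reads, or 0.00424 CPM (counts scaled to library size). Ugt1a6a thus held the most own reads in these samples, and the 3 reads of Ugt1a5 all came from 1 dnFGFR SS mouse.

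**Figure D1:**
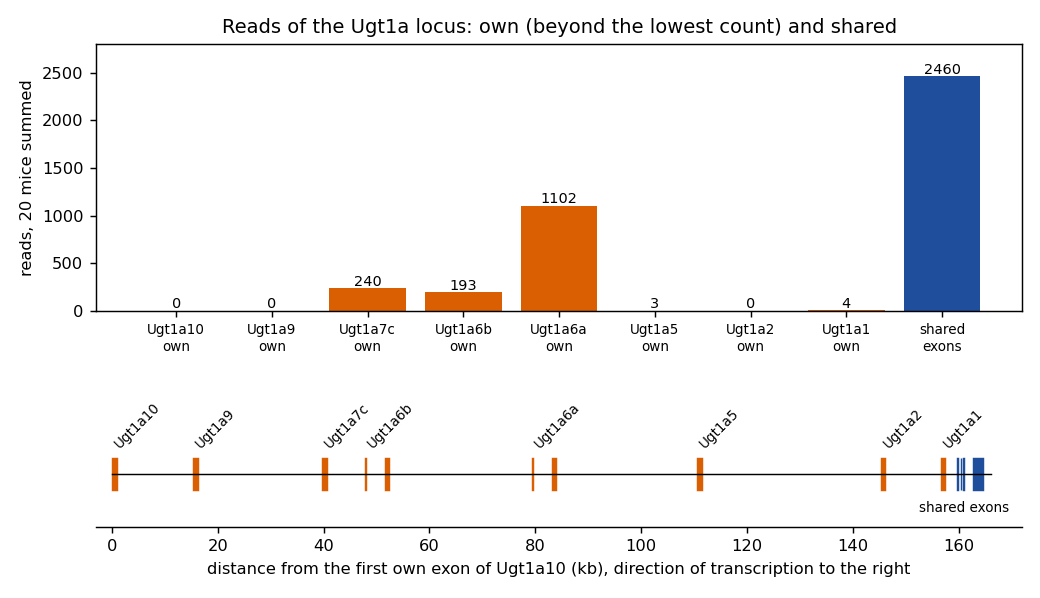
Reads of the Ugt1a locus summed over 20 mice (upper panel, y axis in reads), split into own reads, those beyond the lowest count (orange), and common reads (blue, marked as shared), above a map of the exons to scale (lower panel, x axis in kb). Ugt1a6a held 1102 own reads against 240 or fewer for every other row, and 2460 reads were taken as common.

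Per kb of exon, the mean level over 20 mice was 1.57 CPM for the own exons of Ugt1a6a and 0.279 CPM for Ugt1a6b. The own reads of Ugt1a7c came to 0.369 CPM per kb if all of them lie in its first exon. The common exons stood at 1.51 CPM per kb with the longest last exon and at 2.66 CPM per kb with the shortest. The supply genes were far above the locus on the same per-length scale. Ugdh stood at 12.8 CPM per kb, and Ugp2 at 30.9 or 40.6 CPM per kb for its longer or shorter transcript. Both supply genes thus had a higher level per length than any exon class of the locus.

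Sequenced depth ranged from 32353578 to 39871353 counted reads per mouse, and 1 CPM corresponded to 32.8 to 40.3 reads. The principal components of log2 CPM set dnFGFR OS replicate 5 apart, at 69.3 on the first component against -29.8 to 15.97 for the other 19 mice, and it had reads on 18416 genes against 19101 to 19659. Several differences that include this mouse are also given without it. The labels name the tissue as the medial POA, and the markers Gnrh1, Esr1, Gal and Moxd1 had reads in every mouse. Striatal markers were far more abundant, with Drd1, a dopamine receptor, at 171 CPM in control SS mice against 2.02 CPM for Gnrh1 and 5.40 CPM for Esr1. Liver markers summed to 13.7 CPM in control SS mice, mostly from Apoa2, and Alb, which defines hepatocytes, stayed at 0.0525 CPM or less in every group.

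In control mice, the common Ugt1a exons were higher after OS housing, but the difference did not pass the adjusted threshold. The level was 3.22, 2.42, 3.39, 2.91 and 2.27 CPM in the 5 control SS mice. In the 5 control OS mice it was 3.87, 4.70, 3.94, 5.18 and 4.34 CPM. Every control OS mouse was above every control SS mouse, and the means were 2.84 ± 0.488 and 4.41 ± 0.546 CPM (SD, n = 5 each). The share of all genes tested whose groups separate in this way was not counted, here or for the genes below. The fitted log2 difference was 0.64 (SE 0.152), with an adjusted p of 0.226 by edgeR's quasi-likelihood test over all genes. In the same comparison, 21 of 17004 genes tested (0.124%) were called at an adjusted p under 0.1, none of them a member. By DESeq2, 7 of the 8 Ugt1a rows, which share the common reads, were called, with adjusted p between 0.0174 and 0.0495, and Ugt1a6a was not. DESeq2 called 157 of 21625 genes (0.726%) in this comparison. Housing and sacrifice date were largely tied in control mice, of which only 2 SS and 5 OS mice could be compared within 2 dates. In dnFGFR mice these were 2 SS and 4 OS mice. The split row of the common exons was not refitted within dates. The rows of Ugt1a2, Ugt1a9 and Ugt1a10, which hold the same counts, were refitted in both genotypes. They stayed higher in OS mice by the fit and short of the threshold. Beyond this direction, the part of date in these differences was not tested.

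The rows of the single genes contain the common reads, and all 8 were higher in control OS than in control SS mice by the fit, without passing the threshold. Ugt1a1 differed by 0.64 (SE 0.153) on the log2 scale in control mice, and Ugt1a2, Ugt1a5, Ugt1a9 and Ugt1a10 shared 1 value of 0.64 (SE 0.152, adjusted p = 0.212 by edgeR). Ugt1a7c differed by 0.58 (SE 0.132, adjusted p = 0.183 by edgeR) and Ugt1a6b by 0.60 (SE 0.159). Ugt1a6a, which has the most reads of its own, differed least, by 0.47 (SE 0.162, adjusted p = 0.491 by edgeR). These 8 values are not 8 observations.

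Own reads of Ugt1a6a did not separate the housings in control mice. Their level was 1.17, 1.04, 2.08, 2.83 and 1.20 CPM in control SS mice. It was 1.36, 2.02, 2.36, 2.13 and 1.2495 CPM in control OS mice, within the range of the SS mice. The mean count was 62.6 reads in both groups, and the log2 difference was 0.13 (SE 0.295, adjusted p = 0.958 by edgeR). The difference was 0.41 without control SS replicate 4, which had the most own Ugt1a6a reads of its group. It was -0.0048 without control SS replicate 2. Own Ugt1a7c reads differed by 0.07 (SE 0.448) and own Ugt1a6b reads by 0.24 (SE 0.453) on the log2 scale, from 6 to 21 reads per mouse for Ugt1a6b and 2 to 21 for Ugt1a7c. Without 1 mouse, own Ugt1a7c ran from -0.19 to 0.32 and own Ugt1a6b from 0.032 to 0.64. The difference of 0.64 in the common exons lay within 2 SE of the values of both genes from all mice.

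Whether own and common reads responded differently was tested through the share of locus reads that own Ugt1a6a reads made up, a quantity chosen after the values were seen. The share was 31.3% ± 8.96 in control SS mice and 25.99% ± 5.53 in control OS mice (SD, n = 5 each). It was 24.95% ± 5.97 in dnFGFR SS and 24.8% ± 7.67 in dnFGFR OS mice. The highest single share was 46.2%, in control SS replicate 4, and the lowest 14.1%, in dnFGFR OS replicate 4. The control groups differed by -5.29 percentage points, with p = 0.310 in a two-sided exact permutation test over 252 splits (adjusted p = 0.619 over 4 comparisons), so no difference in the response of own and common reads was shown. Without control SS replicate 4, the mouse with the highest share, the difference was -1.57 percentage points.

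In dnFGFR mice, OS housing was accompanied by a smaller difference in the same direction. The common exons stood at 2.67, 3.12, 3.45, 2.56 and 3.66 CPM in dnFGFR SS mice. In dnFGFR OS mice they stood at 3.56, 3.60, 3.94, 3.69 and 3.33 CPM. The groups overlapped, with means of 3.09 ± 0.480 and 3.62 ± 0.223 CPM (SD, n = 5 each). The log2 difference was 0.23 (SE 0.150, adjusted p = 0.794 by edgeR), and 0.26 (SE 0.157, adjusted p = 0.858 by edgeR) without dnFGFR OS replicate 5. No gene of 16944 was called in this comparison (0%) by edgeR, while 1138 had an unadjusted p under 0.05 and DESeq2 called 5. Glucuronidation was among the processes named by a gene set analysis of dnFGFR mice in the study, so the direction in these mice is not independent evidence. Among markers of other cells in this comparison, all 7 of the choroid plexus (median log2 difference 0.41) and 7 of 8 of astrocytes (median 0.16) were positive, and all 6 striatal markers were negative (median -0.22). None was called, and their part in the Ugt1a values was not tested.

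Among single rows in dnFGFR mice, Ugt1a6a differed by 0.23 (SE 0.169), Ugt1a6b by 0.25 (SE 0.159) and Ugt1a7c by 0.18 (SE 0.153) on the log2 scale, and none was called. Without 1 mouse, the Ugt1a6a row ran from 0.13 to 0.31 and the Ugt1a7c row from 0.10 to 0.25. Own reads of Ugt1a6a stood at 0.985, 1.87, 0.962, 0.774 and 1.61 CPM in dnFGFR SS mice. They stood at 1.84, 1.23, 2.55, 0.700 and 1.01 CPM in dnFGFR OS mice, so the lowest value of both groups was in an OS mouse. The log2 difference was 0.23 (SE 0.362). It was 0.34 (SE 0.372) without dnFGFR OS replicate 5, and -0.06 without dnFGFR OS replicate 3, the mouse with the most own Ugt1a6a reads of its group. Between genotypes in OS-housed mice, own Ugt1a6a reads differed by -0.32 (SE 0.333), or -0.22 (SE 0.342) without dnFGFR OS replicate 5. They differed by -0.61 without dnFGFR OS replicate 3 and by -0.14 without dnFGFR OS replicate 4. Their interaction was 0.11 (SE 0.487), or 0.21 (SE 0.495) without dnFGFR OS replicate 5, and -0.18 without dnFGFR OS replicate 3.

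**Figure D2:**
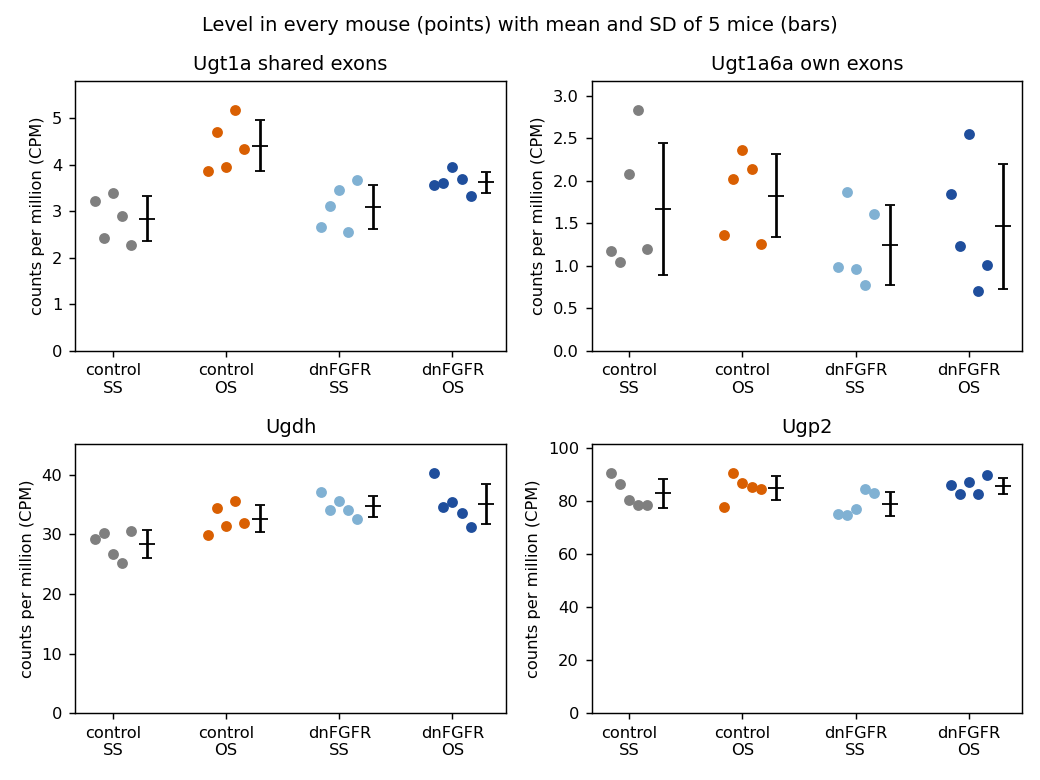
Level in each of 20 mice (points, y axes in CPM) for the common (shared) Ugt1a exons, the own exons of Ugt1a6a, Ugdh and Ugp2, with the mean and SD of the 5 mice of each group (black bars). The common Ugt1a exons of all control OS mice lie above those of all control SS mice, and Ugdh of all dnFGFR SS mice above that of all control SS mice. The share of all genes with such a separation was not counted.

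The response of the common exons was not shown to differ between genotypes. The housing by genotype interaction was -0.41 (SE 0.199) on the log2 scale, with an unadjusted p of 0.0535 and an adjusted p of 0.964 by edgeR, and -0.38 (SE 0.206) without dnFGFR OS replicate 5. None of 17445 genes was called for the interaction (0%), 595 had an unadjusted p under 0.05, and DESeq2 called 1 gene. Between genotypes, the common exons of SS-housed mice differed by 0.13 (SE 0.164), with 0.055 without control SS replicate 5 and 0.20 without control SS replicate 3, where 34 of 16992 genes (0.2%) were called. OS-housed dnFGFR mice had a log2 level lower by 0.28 (a difference of -0.28, SE 0.134, adjusted p = 0.713 by edgeR) than OS-housed control mice, and 9 of 16941 genes (0.0531%) were called. The ranges of these OS groups, 3.33 to 3.94 and 3.87 to 5.18 CPM, overlapped at their edge. Without dnFGFR OS replicate 5 the difference was -0.26 (SE 0.141, adjusted p = 0.815 by edgeR). In the same comparison of OS-housed mice, all 7 choroid plexus (median log2 difference -1.03), 5 ependymal (median -0.45), 6 striatal (median -0.29) and 6 oligodendrocyte markers (median -0.12) were negative. Of 10 endothelial markers 8 were negative (median -0.02), and of 8 astrocyte markers 5 were positive (median 0.08). For the interaction, all 7 choroid plexus (median -0.86) and 5 ependymal markers (median -0.20) were negative. Mostly positive were endothelial (9 of 10, median 0.17), leptomeningeal (6 of 7, median 0.10), pericyte (5 of 6, median 0.15) and astrocyte markers (6 of 8, median 0.12). None of these markers was called, and their part in the Ugt1a values was not tested. In the order of group means, control OS came first, followed by dnFGFR OS, dnFGFR SS and control SS, and no pair of neighbors in that order differed past the threshold.

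Choroid plexus markers were also higher in control OS mice. The choroid plexus lines the ventricles and makes cerebrospinal fluid, and its 7 listed markers (Ttr, Kl, Clic6, Folr1, Aqp1, Otx2 and Kcne2) were all higher in control OS than in control SS mice, with a median log2 difference of 1.38, though none was called. Their sum was 130, 402, 48.4, 1082 and 37.3 CPM in the control SS mice and 1421, 1959, 724, 1916 and 54.6 CPM in the control OS mice. It was 48.9, 52.4, 1593, 39.0 and 751 CPM in the dnFGFR SS mice and 232, 37.5, 2178, 55.0 and 423 CPM in the dnFGFR OS mice. The groups overlapped, and their means were 340.0 CPM in control SS, 1215 CPM in control OS, 497 CPM in dnFGFR SS and 585 CPM in dnFGFR OS mice. In control OS mice 4 of 5 stood at 724 CPM or more, while 1 mouse held most of the sum in each of the other groups. Without the highest mouse of each group the means were 154, 1029, 223 and 187 CPM, so the order of the dnFGFR groups was turned. Ttr, which encodes transthyretin and ranged from 0.208 to 1992 CPM between mice, was the largest part of the sum in 12 mice. Clic6, a chloride channel protein, was the largest part in the other 8, which had the lowest sums and include control OS replicate 5. All 7 markers had reads in each group, and Folr1 was at 0 in 1 mouse, dnFGFR SS replicate 4. The summed marker level correlated with the common Ugt1a exons over 20 mice (log2 CPM, Pearson r = 0.493, permutation p = 0.0276, adjusted p = 0.119 over 8 relations, Spearman rho = 0.570, permutation p = 0.00954, adjusted p = 0.0763). Within groups, after group means were subtracted, r was 0.357 (permutation p = 0.155) and rho 0.445 (permutation p = 0.0677). Without the 2 mice farthest from the median marker level, r over mice was 0.461.

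With the marker level as a covariate, chosen after the values were seen, the common exons differed by 0.62 (SE 0.179, unadjusted p = 0.00371 and adjusted p = 0.594 by edgeR) on the log2 scale. Control OS replicate 5 had 54.6 CPM of summed markers, near the lowest control SS mice, and 4.34 CPM of common Ugt1a reads, above all control SS mice. Own Ugt1a6a reads changed sign with this covariate in control mice, from 0.13 to -0.14 (SE 0.317). Over mice, the markers and own Ugt1a6a reads had r = 0.493 (permutation p = 0.0299, adjusted p = 0.119) and rho = 0.439 (permutation p = 0.0552), and without the 2 most distant mice r was 0.479. Within groups, r was 0.444 (permutation p = 0.0760) and rho 0.468 (permutation p = 0.0638). Without the 2 most distant mice, the r within groups was 0.281. The part of choroid plexus content in the Ugt1a differences was not tested beyond these values.

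**Figure D3:**
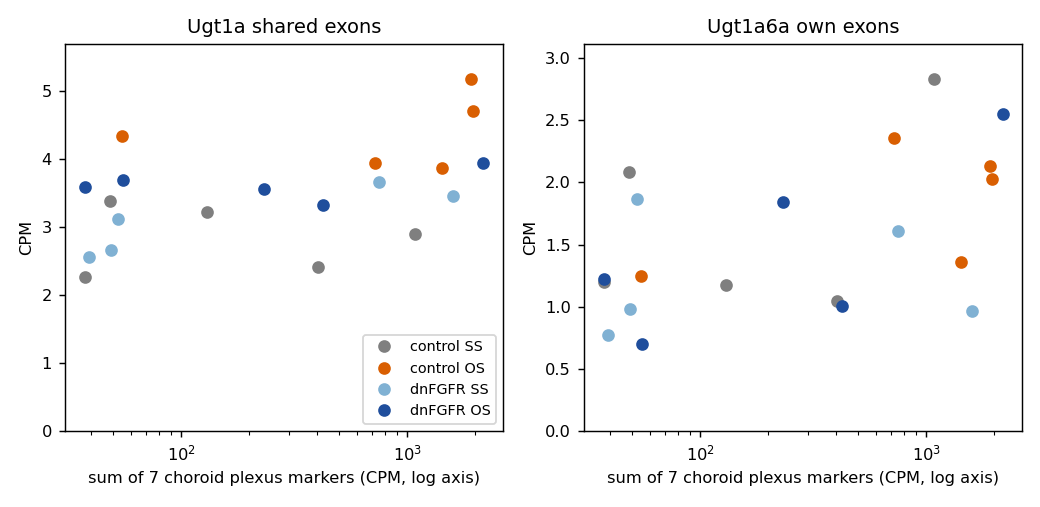
Common Ugt1a exons (left) and own exons of Ugt1a6a (right, y axes in CPM) against the summed level of 7 choroid plexus markers (x axis in CPM, log scale) in 20 mice colored by group. Control OS replicate 5, at 54.6 CPM of markers, had 4.34 CPM of common Ugt1a reads, while the other 4 control OS mice lie between 724 and 1959 CPM of markers.

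Markers of other cell types were compared in the same way. Of 10 endothelial markers, 1 had a positive and 9 a negative log2 difference (median -0.11), and of 8 astrocyte markers 6 were positive (median 0.04). Among 5 ependymal markers, all were positive (median 0.29). Of 7 leptomeningeal markers, 6 were negative (median -0.22), as were all 6 striatal (median -0.07) and all 5 oligodendrocyte precursor markers (median -0.06). No marker of these lists was called, and their part in the Ugt1a result was not tested.

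Ugdh, at chr5:65413207-65435842, was lowest in control SS mice. Its level was 29.2, 30.3, 26.7, 25.3 and 30.6 CPM in control SS mice. It was 37.1, 34.0, 35.6, 34.1 and 32.5 CPM in dnFGFR SS mice, all of them above all control SS mice. The means were 28.4 ± 2.33 and 34.7 ± 1.74 CPM (SD, n = 5 each). The log2 difference of 0.29 (SE 0.0637) had an adjusted p of 0.147 by edgeR, which does not pass the threshold, and an adjusted p of 0.0144 by DESeq2, which called 225 of 21709 genes (1.04%). Removing the trend on GC content and length also brought it past the threshold (0.32, adjusted p = 0.0681 by edgeR), with 52 of 16992 genes called (0.306%).

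Control OS mice had 29.9, 34.5, 31.4, 35.5 and 31.9 CPM (mean 32.6 ± 2.32, SD, n = 5), which overlapped with control SS mice, and the log2 difference was 0.20 (SE 0.0712, adjusted p = 0.506 by edgeR). In dnFGFR OS mice the level was 40.3, 34.5, 35.3, 33.5 and 31.3 CPM (mean 35.0 ± 3.35, SD, n = 5). The dnFGFR groups overlapped fully, with a log2 difference of 0.01 (SE 0.0799), or 0.05 (SE 0.0762) without dnFGFR OS replicate 5. This difference was -0.037 without dnFGFR OS replicate 1. Between genotypes in OS-housed mice Ugdh differed by 0.10 (SE 0.0834) on the log2 scale, and its interaction of -0.19 (SE 0.104) was not called. Without 1 mouse the difference in OS-housed mice ran from 0.049 (dnFGFR OS replicate 1 left out) to 0.14 (dnFGFR OS replicate 5 left out), and the interaction from -0.23 to -0.14. In SS-housed mice, 9 of the 34 genes called between genotypes lie on chromosome 5, which holds 1028 of the genes tested, and 1 of the 70 genes tested within 10 Mb of Ugdh was called. Over all genes, 34 of 16992 (0.2%) were called. All 10 endothelial (median -0.20), 6 pericyte (median -0.25), 6 striatal (median -0.18), 6 oligodendrocyte (median -0.17) and 5 oligodendrocyte precursor markers (median -0.11) had negative log2 differences in this comparison. None of them was called, and their part in the Ugdh result was not tested.

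Ugp2, at chr11:21321126-21371267, was not called in any comparison. Its mean was 82.9 ± 5.41 CPM in control SS, 84.9 ± 4.63 in control OS, 78.8 ± 4.62 in dnFGFR SS and 85.5 ± 3.05 in dnFGFR OS mice (SD, n = 5 each). Single mice ranged from 74.8 CPM, in a dnFGFR SS mouse, to 90.6 CPM, in a control SS mouse, and all groups overlapped. The largest log2 difference was 0.12 (SE 0.0633, adjusted p = 0.753 by edgeR) between OS- and SS-housed dnFGFR mice, and 0.10 (SE 0.0633) without dnFGFR OS replicate 5. In control mice the difference was 0.03 (SE 0.0555), and it ran from 0.013 to 0.066 without 1 mouse. Between genotypes in OS-housed mice Ugp2 differed by 0.01 (SE 0.0618), or -0.01 (SE 0.0603) without dnFGFR OS replicate 5, and its interaction was 0.08 (SE 0.0804), or 0.07 (SE 0.0795) without that mouse. Ugp2 overlaps Vps54 and Mir1933 in the annotation, and whether strand was used in counting is not given in the sources used here.

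**Figure D4:**
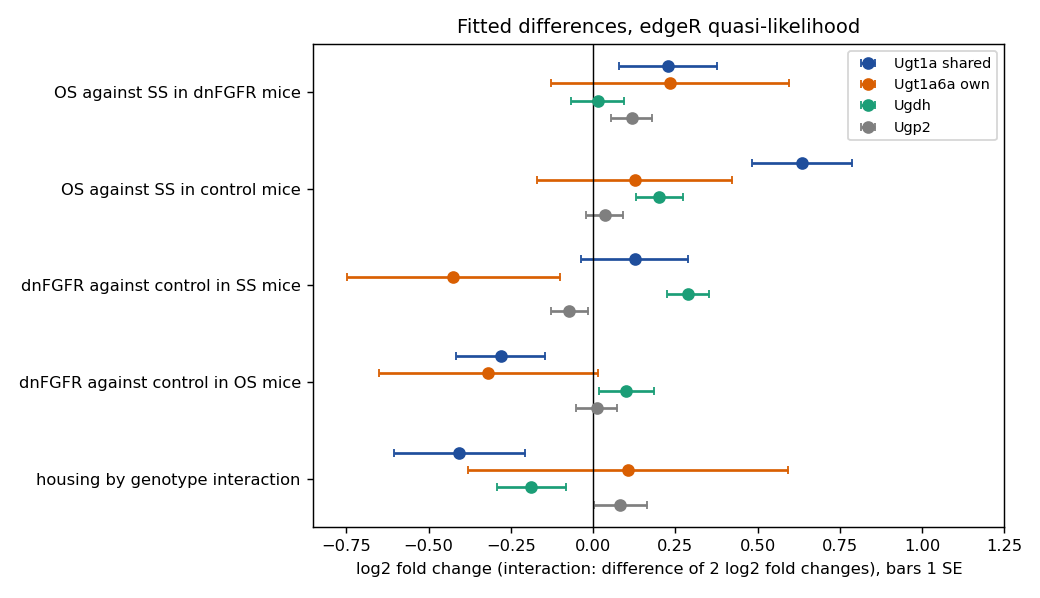
Log2 fold changes with 1 SE (x axis) of the common Ugt1a exons, own Ugt1a6a exons, Ugdh and Ugp2 in 4 comparisons, and the interaction as a difference of log2 fold changes. The common exons in control mice (0.64) and Ugdh between genotypes in SS mice (0.29) lie farthest from 0 relative to their SE, and none passed the adjusted threshold by edgeR.

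The locus and its supply genes were not shown to vary together between mice. Over 20 mice (log2 CPM), the common Ugt1a exons and Ugdh had r = 0.251 (permutation p = 0.284, adjusted p = 0.567 over 4 relations) and rho = 0.274 (permutation p = 0.241). After group means were subtracted, r was -0.0677 (permutation p = 0.784) and rho -0.150 (permutation p = 0.563). For the common exons and Ugp2, r was 0.360 (permutation p = 0.118, adjusted p = 0.471) and rho 0.338 (permutation p = 0.144), and within groups r was 0.176 (permutation p = 0.535) and rho 0.184 (permutation p = 0.518). Leaving out the 2 mice farthest from the median of the common exons gave r = 0.147 for Ugdh and 0.295 for Ugp2 over all mice.

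The genes whose log2 CPM followed the members most closely over the 20 mice, with group means subtracted, were listed as a description. For the common Ugt1a exons these were Insl5 (r = 0.819), an insulin-like peptide, Slc29a2 (r = 0.784), a nucleoside transporter, H2-T10 (r = 0.775), a class I histocompatibility gene, Gucd1 (r = 0.770) and Smpd5 (r = 0.762), a sphingomyelinase, among 17437 genes compared. For Ugdh they were Ccdc58 (r = 0.792), Anapc10 (r = 0.770), a subunit of the anaphase-promoting complex, and Lox (r = 0.757), lysyl oxidase. For Ugp2 they were Tdrd7 (r = 0.811), Cap1 (r = 0.795), an actin regulator, and Med17 (r = 0.767), a Mediator subunit. The highest 0.1% of all genes had r above 0.698 for the common exons, 0.669 for Ugdh and 0.681 for Ugp2, so the top of each list is what remains after a search through all genes.

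Genes near the locus were not called in any of the 5 comparisons. Dnajb3, a chaperone gene within an intron of the locus at chr1:88204732-88205748, had a log2 difference of -0.63 (SE 0.294, adjusted p = 0.689 by edgeR) in control mice, opposite in sign to the common exons. Its mean was 1.08 ± 0.225 CPM in control SS and 0.695 ± 0.276 CPM in control OS mice (SD, n = 5 each). In control mice Usp40, a ubiquitin protease upstream, differed by -0.04 (SE 0.0726), Dgkd, a diacylglycerol kinase, by -0.08 (SE 0.0464), and Hjurp, a centromere chaperone downstream, by -0.01 (SE 0.0720). Mroh2a differed by 0.00323 (SE 0.192) and Trpm8, a cold-sensing channel, by -0.08 (SE 0.369). Spp2 had 9 reads or fewer in every mouse and was not tested.

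In the 300-base windows around the annotated starts (RefSeq, GRCm38, both strands), the xenobiotic response element core GCGTG matched 3 times for Ugdh, 5 times for 1 of 2 Ugp2 starts, once for Ugt1a5 and nowhere for the windows of Ugt1a1, Ugt1a2, Ugt1a6a, Ugt1a7c, Ugt1a9 and Ugt1a10. The antioxidant response element TGACNNNGC matched 2 times for Ugdh and in none of the other windows. The window of Ugt1a6b was not analysed here. Of all 32851 windows, 32.4% held the first motif and 12.4% the second. These letter matches describe the windows only.

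Of 89 listed genes of the surrounding pathway, 88 were in the table, and 69 passed the filter on low counts in the housing comparisons. In control mice 1 of the 69 was called and rose, against 0.124% of all genes, and 35 had a positive difference, against 50.9% of all genes tested (median 0.00382 on the log2 scale, against 0.00206 for all genes tested). In dnFGFR mice 0 of 69 were called (0% of all genes) and 44 were positive, again against 50.9% of all genes tested (median 0.04, against 0.00366 for all genes). Between genotypes 0 of 67 were called in SS mice, against 0.2% of all genes, and 0 of 69 in OS mice, against 0.0531%. The interaction had 0 calls among 69, and 0% over all genes.

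The called gene was Slc2a1, the glucose transporter of the blood-brain barrier, which feeds the route to UDP-glucose. Its level was 95.5, 107, 106, 99.4 and 83.0 CPM in control SS mice. It was 132, 123, 127, 142 and 121 CPM in control OS mice, all above the SS mice. The log2 difference was 0.40 (SE 0.0694, adjusted p = 0.0608 by edgeR). The call was lost (adjusted p from 0.120 to 0.207) without any 1 of control SS replicates 1, 4 and 5 and control OS replicates 1 and 4, with all 4 groups in 1 fit (adjusted p = 1.00), within sacrifice dates (0.28, adjusted p = 1.00) and with the choroid plexus covariate (0.34, adjusted p = 0.351). Over the fits without 1 mouse the log2 difference stayed between 0.34 and 0.43. The fit within dates holds only 2 SS and 5 OS mice on 2 dates, since housing and date were largely tied. In dnFGFR mice Slc2a1 ranged from 94.0 to 179 CPM after SS and from 104 to 168 CPM after OS housing, with a log2 difference of 0.15 (SE 0.165). Without 1 mouse this difference ran from 0.051 (dnFGFR SS replicate 4 left out) to 0.29 (dnFGFR SS replicate 3 left out), and it was 0.25 (SE 0.148) without dnFGFR OS replicate 5.

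**Figure D5:**
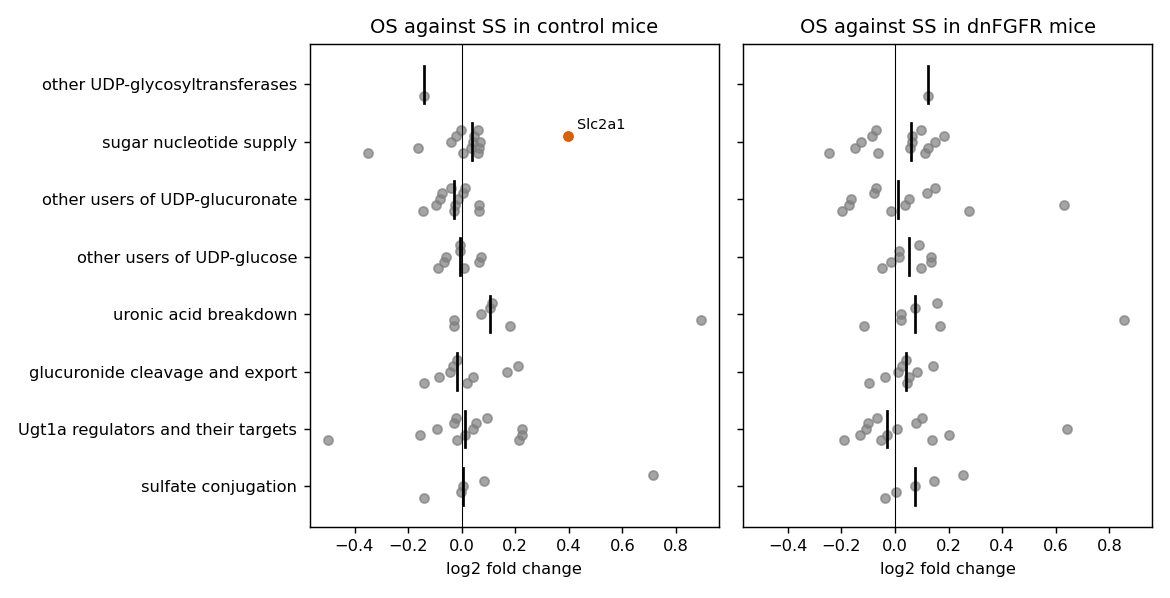
Log2 fold changes (x axis) of OS against SS housing in control (left) and dnFGFR mice (right) for the genes tested in 8 pathway lists. Each point is a gene, black lines are list medians, and Slc2a1 (orange) is the only gene with an adjusted p under 0.1.

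Other transferases were scarce. Of 13 other UDP-glycosyltransferases, Ugt8a alone passed the filter, an enzyme that makes galactosylceramide for myelin and uses UDP-galactose. Its mean was 84.1 ± 10.4 CPM in control SS and 65.4 ± 6.99 CPM in dnFGFR SS mice (SD, n = 5 each), and the log2 difference of -0.36 (SE 0.0875) was not called (adjusted p = 0.188 by edgeR). All 6 oligodendrocyte markers had negative differences in the same comparison (median -0.17), none of them called, and their part was not tested. With housing, Ugt8a differed by -0.14 (SE 0.0858) in control and by 0.12 (SE 0.151) in dnFGFR mice.

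Along the route to and from the sugar donor, all other genes missed the threshold, and the gene with the smallest p in each direction is named for each list. In sugar nucleotide supply, Hk2, a hexokinase, differed by -0.35 (SE 0.205) in control mice. In dnFGFR mice Uxs1, which converts UDP-glucuronate to UDP-xylose, differed by 0.12 (SE 0.0849) and Galt, of galactose metabolism, by -0.15 (SE 0.110). Among other users of UDP-glucuronate, B3gat2, a glucuronyltransferase of glycoproteins, differed by 0.06 (SE 0.0592) in control and 0.28 (SE 0.102) in dnFGFR mice. Chpf2 differed by -0.07 (SE 0.0485) in control and Chpf by -0.16 (SE 0.0949) in dnFGFR mice, both of chondroitin synthesis. Among users of UDP-glucose, Alg5 differed by 0.06 (SE 0.0715) and Uggt2 by -0.09 (SE 0.0608) in control mice, and Ugcg, the glucosylceramide synthase, by 0.13 (SE 0.0839) and Gbe1, the glycogen branching enzyme, by -0.05 (SE 0.106) in dnFGFR mice.

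In uronic acid breakdown, no gene was called. Of 7 genes tested, 5 were positive in control mice (median 0.11) and 6 in dnFGFR mice (median 0.08). Sord, sorbitol dehydrogenase, differed by 0.18 (SE 0.0629, adjusted p = 0.491 by edgeR) and Akr1b3, aldose reductase, by -0.03 (SE 0.0654) in control mice. Rgn, a gluconolactonase, differed by 0.85 (SE 0.403, adjusted p = 0.726 by edgeR) in dnFGFR mice at a mean of 0.286 to 0.520 CPM, and Dcxr, xylulose reductase, by -0.12 (SE 0.200).

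Genes for cleavage and export of glucuronides were not called. Slco1c1, a thyroid hormone and conjugate carrier, differed by 0.17 (SE 0.0720) in control and 0.08 (SE 0.110) in dnFGFR mice. Slco1a4, an organic anion carrier, differed by -0.08 (SE 0.0645) in control mice, and Abcc1, an export pump, by -0.10 (SE 0.141) in dnFGFR mice. In sulfate conjugation, the parallel route, Sult1a1, a phenol sulfotransferase, differed by 0.71 (SE 0.242, adjusted p = 0.474 by edgeR) and Sult2b1 by -0.14 (SE 0.227) in control mice. In dnFGFR mice Papss2, which makes the sulfate donor, differed by 0.26 (SE 0.106) and Papss1 by -0.04 (SE 0.0648).

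Regulators of the Ugt1a locus and their targets were also not called. Of 13 tested, 7 were positive in control mice (median 0.01) and 6 in dnFGFR mice (median -0.03). Nfe2l2, the NRF2 factor of the antioxidant response, differed by 0.23 (SE 0.0786, adjusted p = 0.492 by edgeR) in control mice, from 19.4 ± 1.99 to 22.6 ± 1.38 CPM (SD, n = 5 each). Ahrr, the repressor of the aryl hydrocarbon receptor, differed by -0.50 (SE 0.266) in control mice and by 0.64 (SE 0.287) in dnFGFR mice. Its interaction of 1.14 (SE 0.360) had an unadjusted p of 0.00453 and an adjusted p of 0.963 by edgeR. Rxra, a partner of nuclear receptors, differed by -0.13 (SE 0.0977) in dnFGFR mice.

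Between genotypes, no listed gene was called. In SS-housed mice, Slc2a1 differed by 0.42 (SE 0.136, adjusted p = 0.350 by edgeR) and Sult1a1 by 0.74 (SE 0.248, adjusted p = 0.373 by edgeR) on the log2 scale. Rxra differed by 0.14 (SE 0.0649) and Papss2 by -0.15 (SE 0.0689). Chsy1, a chondroitin synthase, differed by -0.12 (SE 0.0635), Gbe1 by 0.14 (SE 0.0875) and Sord by 0.11 (SE 0.0718). Abcc3, an export pump for glucuronides, differed by -0.21 (SE 0.136) and Abcg2, another export pump, by 0.13 (SE 0.116). The other genes with the smallest p of their lists were Slc35d2 at -0.25 (SE 0.264), B3gat3 at 0.08 (SE 0.0669), Gys1, glycogen synthase, at -0.10 (SE 0.0704) and Ahrr at -0.35 (SE 0.233). In OS-housed mice, Ext1, which polymerizes heparan sulfate from UDP-glucuronate, differed by 0.31 (SE 0.0994, adjusted p = 0.60 by edgeR), Pgm2l1 by 0.32 (SE 0.133) and Ahrr by 0.79 (SE 0.312). Lower by the fit in OS-housed dnFGFR mice were Chpf at -0.17 (SE 0.0913), Slco1c1 at -0.17 (SE 0.117), Nme2, a nucleoside diphosphate kinase, at -0.19 (SE 0.232), Nr1i3, the nuclear receptor CAR, at -0.30 (SE 0.205), Dcxr at -0.10 (SE 0.157) and Gys1 at -0.05 (SE 0.101). Sult2b1, a sterol sulfotransferase, stood at 0.54 (SE 0.268), Cryl1, a crystallin-like dehydrogenase, at 0.16 (SE 0.139), Ugcg at 0.14 (SE 0.0830) and Abcc3 at 0.07 (SE 0.211).

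For the interaction, no listed gene was called either. The positive differences of log2 fold changes with the smallest p in their lists were 0.28 (SE 0.274) for Hk2, 0.21 (SE 0.121) for B3gat2, 0.14 (SE 0.0991) for Ugcg, 0.11 (SE 0.181) for Cryl1, 0.28 (SE 0.240) for Abcc3, 0.17 (SE 0.133) for Papss2 and 0.26 (SE 0.187) for Ugt8a. The negative ones were -0.25 (SE 0.192) for Slc2a1, -0.17 (SE 0.107) for Chpf, -0.12 (SE 0.144) for Gbe1, -0.22 (SE 0.238) for Dcxr, -0.16 (SE 0.171) for Abcg2, -0.23 (SE 0.115) for Rxra and -0.57 (SE 0.409) for Sult1a1. Without 1 mouse, the Slc2a1 interaction ran from -0.34 (dnFGFR SS replicate 4 left out) to -0.093 (dnFGFR SS replicate 3 left out).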

How the data were processed

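Paired-end reads of 150 bases had been aligned by the sequencing provider with HISAT2 to GRCm38, and the authors deposited raw counts per RefSeq gene made with Rsubread. Options for strand and for reads on several genes are not given in the sources used here. The authors tested with DESeq2 1.36.0. Of the table's columns, 20 belong to other samples and were not used. No 2 mice of a group agreed within sampling noise (lowest chi-square per gene 9.51 over 40 pairs).

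Counts were tested here with edgeR 4.0.16 (quasi-likelihood, TMM scaling, filterByExpr, R 4.3.3), on the 10 mice of each comparison and on all 20 for the interaction. P-values were adjusted over all genes by Benjamini-Hochberg, with a threshold of 0.1. Levels are CPM, counts scaled to the TMM-adjusted library size, and correlations and likeness used log2 CPM with a prior count of 2 and 1e+05 resamples. DESeq2 1.42.0, RLE scaling, other filters, a replicate block, removal of the GC and length trend, a fit of all 4 groups, sacrifice dates given by the study, and leaving out each mouse were alternatives. A covariate for choroid plexus markers and the share of own Ugt1a6a reads were chosen once values had been seen.

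The members and lists were chosen with earlier results of these data known. The genes named were all members, for each list and comparison the gene with the smallest p in each direction and any called, the genes most like a member, and neighbors within 200 kb. The samples are single mice, and counting intervals and limits cover counting error only.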

Additional observations from a re-analysis of the deposited data

Results flagged for a closer look

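Own reads of Ugt1a7c stood at 0.274 CPM in control OS replicate 4, below the other 4 control OS mice at 0.369 to 0.399 CPM, a gap that is large for the narrow range of that group. The 68 groups of values examined gave 1 such case, and chance alone flags about 1 in 20. The value rests on 9 reads against 13 or 14 in the other mice.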

How the results depend on the processing

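The common Ugt1a exons were refitted with the choroid plexus covariate, with the single lowest row in place of the lowest count, and without each mouse in turn, and in these fits they kept their direction and stayed short of the threshold, with log2 differences of 0.56 to 0.71 in control and 0.17 to 0.30 in dnFGFR mice. Other settings were run on the rows of the genes, and DESeq2 called Ugt1a2, Ugt1a9 and Ugt1a10, whose counts equal those of the common exons, in control mice (adjusted p = 0.0238). Of 510 alternative values for members, 494 kept direction and side of the threshold, 9 passed the threshold (7 Ugt1a rows in control mice by DESeq2, and Ugdh between genotypes in SS mice by DESeq2 and with the GC and length trend removed) and 7 changed sign. The 8 Ugt1a rows hold the same common reads, so their values largely repeat 1 measurement and these counts are not of separate observations. Ugdh in dnFGFR mice became -0.042 without the GC and length trend, -0.057 with the replicate block as well, and -0.032 within sacrifice dates, a fit of 2 SS and 4 OS mice on 2 dates. Ugp2 became -0.0076 in control mice and -0.042 between genotypes in OS mice without that trend, and -0.0067 and -0.040 with the block as well. With the choroid plexus covariate, own Ugt1a6a reads in control mice became -0.14 and own Ugt1a7c reads between genotypes in SS mice -0.018. The causes were not tested.

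Called genes numbered 157 by DESeq2 in control mice, 6 at an adjusted p under 0.05, 32 with at least 10 counts in every mouse, 43 without the GC and length trend, 65 with the block as well, 0 with all 4 groups in 1 fit, 1 within sacrifice dates (2 SS and 5 OS mice) and 0 with the covariate. DESeq2 called 5 genes in dnFGFR mice and 1 for the interaction. Between genotypes in SS mice the counts were 225 by DESeq2, 52 without the trend, 58 with the block as well and 57 with the covariate. In OS mice they were 78 by DESeq2, 5 at 0.05, 23 without the trend and 45 with all 4 groups. Leaving out 1 mouse gave 0 to 32 calls in control mice (0 without control SS replicate 4, 2 without control SS replicate 5), 21 to 70 between genotypes in SS mice (70 without dnFGFR SS replicate 5), 3 to 16 in OS mice (16 without dnFGFR OS replicate 2), and 0 in dnFGFR mice and for the interaction.

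Leaving out 1 mouse turned the sign of these values, given as ranges. In dnFGFR mice Ugdh ran from -0.037 to 0.052, own Ugt1a6a from -0.059 to 0.43 and own Ugt1a7c from -0.62 to 0.042. In control mice own Ugt1a6a ran from -0.0048 to 0.41 and own Ugt1a7c from -0.19 to 0.32. Between genotypes in SS mice Ugt1a6a ran from -0.14 to 0.049, Ugt1a6b from -0.018 to 0.16 and own Ugt1a7c from -0.35 to 0.31, and in OS mice Ugp2 from -0.018 to 0.033. For the interaction own Ugt1a6a ran from -0.18 to 0.31 and own Ugt1a6b from -0.33 to 1.21. The share of own Ugt1a6a reads differed by -2.40 to 2.57 percentage points in dnFGFR mice and by -3.44 to 1.53 between genotypes in OS mice. It kept its sign in control mice, from -7.40 without control OS replicate 3 to -1.57 without control SS replicate 4, and between genotypes in SS mice, from -8.27 without dnFGFR SS replicate 2 to -2.61 without control SS replicate 4.

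Replicate numbers did not pair the mice: same-numbered mice had correlations of -0.235 to 0.259, and at most 2 of 5 correlated best with their own number. With the replicate block, 23 genes were called in control mice, 41 between genotypes in SS mice, 3 in OS mice, and 0 in dnFGFR mice and for the interaction. Own reads numbered 6 to 21 per control mouse for Ugt1a6b and 2 to 21 for Ugt1a7c. Listed genes other than Slc2a1 were not recomputed.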
